A study of Homo sapiens with 28 samples.

Results

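The androgen effect, the change in RNA level between cells given R1881 and cells given vehicle, was compared between the 2 experiments of the series in LNCaP, a line of human prostate cancer cells that respond to androgen. R1881 is a synthetic androgen. The comparison takes the 14 libraries without kinase inhibitor of 28 in all, and asks for each gene whether the effect of 1 nM R1881 at 72 h was larger, smaller or of the other sign than the effect of 0.1 nM R1881 at 24 h. Before treatment all cells had spent 72 h with charcoal-stripped serum, from which steroids are largely removed. At 24 h there were 3 libraries of cells given vehicle (0.1% DMSO) and 3 of cells given 0.1 nM R1881. At 72 h there were 4 libraries of cells given vehicle and 4 of cells given 1 nM R1881. Dose, time and experiment changed together, so a difference between the androgen effects cannot be assigned to any of them. The other 14 libraries had the same androgen and vehicle arms with an inhibitor of CDK8 and CDK19 added, Senexin B at 1 µM in the 24 h experiment (the dose of the labels, from which the text of the study differs) and SNX631 at 500 nM in the 72 h experiment, and are used here as a separate measurement of the same difference. Nothing in the labels says that libraries of a group came from separate cultures, so the tests measure the spread between these libraries, which may be technical.

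Androgens act on transcription through DNA elements known as androgen response elements. In prostate epithelium and in LNCaP cells androgen raises a set of secretory, metabolic and regulatory genes such as the kallikreins, lowers others, and at low doses drives entry into the cell cycle. Cell-cycle genes are expressed in waves. E2F factors, released from the pocket proteins, act on genes of DNA replication at the G1/S transition, and a later wave that depends on CCAAT-binding NF-Y and other factors takes in the genes of mitosis. In bulk RNA, a change in the share of cells in a phase of the cycle cannot be told apart from a change in RNA per cell.

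Total counts of the 14 libraries ranged from 9846595 to 33809419, the highest being that of vehicle replicate 3 at 24 h. Luminal epithelial markers were present in all groups, with group means of 594 to 999 CPM (counts per library scaled by TMM factors) for the keratin KRT8, 348 to 631 CPM for KRT18 and 730 to 1500 CPM for FOLH1, which encodes PSMA. The 3 basal markers summed to at most 0.453 CPM and the 3 immune markers to at most 0.288 CPM. The 5 fibroblast markers summed to between 26.9 and 30.7 CPM with vehicle and between 15.5 and 16.9 CPM with R1881 at 24 h, and to between 33.2 and 36.5 CPM and between 18.3 and 25.3 CPM at 72 h. Of these 5, 3 stayed under 1 CPM in every library. The common coefficient of biological variation was 2.45%.

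For most genes called for androgen in the same direction in both experiments, no difference between the effects was called, which does not show that they were equal. Of the 319 genes for which a difference was called, 93 were in lists of cell-cycle genes. A gene was called at a false discovery rate (FDR, edgeR quasi-likelihood test with Benjamini-Hochberg adjustment over all genes tested) under 0.01 together with a fold change over 1.5. The androgen effect was called for 3076 of 16167 genes tested (19%) at 24 h, 9.87% as a rise and 9.15% as a fall, and for 3210 (19.9%) at 72 h, 9.65% as a rise and 10.2% as a fall. Of the 2328 genes called in the same direction at both, the difference between the effects was not called for 2110 (90.6%). The difference itself was called for 319 genes (1.97%), of which 93 (0.575%) had a more positive effect at 72 h and 226 (1.4%) a less positive one. By the signs and sizes of the fitted effects, the rise was weaker at 72 h for 173 of the called genes and stronger for 46, the fall was weaker for 16 and stronger for 27, and the sign was opposite for 57. The median size of the called differences was 0.888 on the log2 scale, and 18 genes differed by more than 4-fold. Without the fold limit 1255 genes (7.76%) passed the FDR limit, 536 above and 719 below 0.

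**Figure D1:**
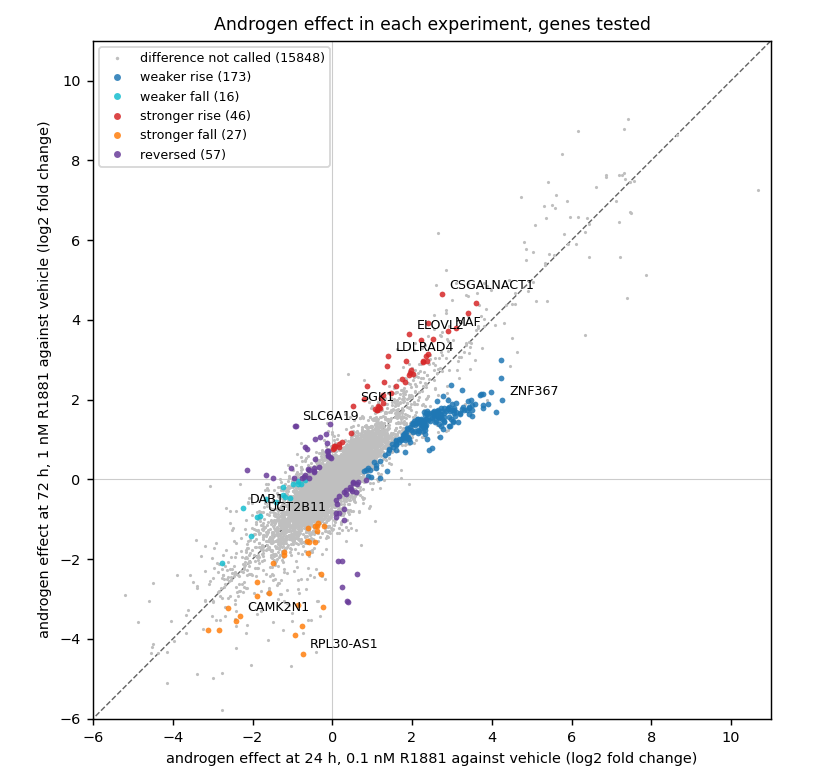
Androgen effect of each gene tested in the 24 h experiment (horizontal axis, log2 fold change) against that in the 72 h experiment (vertical axis, log2 fold change). Each point is a gene, coloured points are the 319 genes called for the difference by class, and the dashed line marks equal effects. The 173 genes with a weaker rise form a band below the line at 24 h effects of about 1 to 4.

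The genes of the cell cycle rose with androgen in both experiments, and rose less in the 72 h experiment. In a list of 68 genes of DNA replication and the G1/S transition, R1881 raised 63 at 24 h and 60 at 72 h, beside 9.87% and 9.65% of all genes tested. The difference was called below 0 for 39 of the 68 (57.4%) and above 0 for 0, beside 1.4% and 0.575% of all genes tested. The median difference of the list was -0.66 on the log2 scale, beside -0.01 over all genes tested. In a list of 75 genes of mitosis and G2/M, R1881 raised 74 at 24 h and 73 at 72 h, the difference was called below 0 for 54 (72%) and above 0 for 0, and the median difference was -0.85. At an unadjusted p under 0.05, edgeR gave 61 and 65 genes of these lists below 0 and 0 above, and the DESeq2 Wald test called 39 and 52 below and 0 above. Both lists together held 93 of the 173 genes with a weaker rise.

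CDC6, which loads the MCM helicase at replication origins, was at 5.19, 5.84 and 5.58 CPM in the vehicle libraries at 24 h and at 82.3, 86.9 and 80.7 CPM with R1881. At 72 h it was at 19.7, 21.0, 20.7 and 19.98 CPM with vehicle and at 73.0, 74.5, 74.5 and 80.6 CPM with R1881. The R1881 libraries at 72 h lay slightly below those at 24 h, and the vehicle libraries at 72 h lay far above those at 24 h. The androgen effect was thus 14.9-fold at 24 h and 3.72-fold at 72 h, a log2 difference of -2.0 ± 0.10 (SE, edgeR FDR 4.95e-17). DTL, the substrate receptor of a ubiquitin ligase that acts on replication licensing factors, showed the same order of groups. It was at 3.65, 3.39 and 3.78 CPM with vehicle and 49.9, 50.9 and 48.9 CPM with R1881 at 24 h, and at 11.9, 13, 15.9 and 13.4 CPM with vehicle and 45.0, 46.7, 41.9 and 52.2 CPM with R1881 at 72 h. Its effect was 13.6-fold at 24 h and 3.43-fold at 72 h (log2 difference -1.99 ± 0.14, SE).

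ZNF367, a zinc finger protein, had vehicle levels of 1.83, 1.80 and 1.66 CPM at 24 h and 5.49, 7.57, 6.46 and 7.21 CPM at 72 h. With R1881 it was at 32.0, 34.0 and 33.2 CPM at 24 h and at 25.9, 25.6, 27.2 and 27.2 CPM at 72 h, so that its effect was 19.1-fold at 24 h and 3.94-fold at 72 h (log2 difference -2.28 ± 0.16, SE). In this gene the R1881 libraries at 72 h also lay below all those at 24 h. NEIL3, a DNA glycosylase of replicating cells, had the largest difference of the class, -2.42 ± 0.38 (SE), from vehicle levels of 0.0960, 0.288 and 0.378 CPM at 24 h and 2.01, 1.84, 2.41 and 2.51 CPM at 72 h. Its R1881 levels were 4.71, 6.16 and 5.40 CPM at 24 h and 8.17, 6.81, 6.96 and 6.51 CPM at 72 h, above the 24 h values in every library.

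Among other replication genes, the effect on RRM2, a subunit of ribonucleotide reductase, fell by 1.80 ± 0.10 on the log2 scale, that on UHRF1, which carries DNA methylation through replication, by 1.92 ± 0.14, and that on MCM10, an initiation factor, by 1.91 ± 0.15 (SE). The MCM helicase subunit MCM2 and the sliding clamp PCNA differed less, by -0.74 ± 0.06 and -0.73 ± 0.06. The activator E2F1 differed by -1.24 ± 0.12 and E2F2 by -1.70 ± 0.27, and the kinase CDK2, from the list of G1 regulators, by -0.65 ± 0.09. The call of CDK2 rests on the fold limit, since without R1881 replicate 2 at 24 h or vehicle replicate 3 at 72 h its difference was -0.58, just inside a 1.5-fold change, with an FDR of at most 8.96e-06.

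In the mitosis list both arms were higher at 72 h, with median shifts of 1.55 for vehicle and 0.67 for R1881, whereas in the replication list they were 0.67 and 0.02. NCAPG, a condensin subunit, was at 3.55, 3.53 and 3.40 CPM with vehicle and 40.9, 43.9 and 40.4 CPM with R1881 at 24 h. At 72 h it was at 11.9, 16.4, 17.2 and 14.9 CPM with vehicle and 51.1, 58.5, 57.2 and 58.5 CPM with R1881. Both arms were thus higher at 72 h, the vehicle arm by more, and the effect was 12.0-fold at 24 h and 3.73-fold at 72 h (log2 difference -1.69 ± 0.14, SE). DEPDC1, a mitotic regulator, had an effect of 13.8-fold at 24 h and 4.42-fold at 72 h (-1.64 ± 0.11). TOP2A, the topoisomerase that decatenates chromosomes, differed by -1.37 ± 0.09, the proliferation marker MKI67 by -1.14 ± 0.12, the chromosomal passenger kinase AURKB by -1.14 ± 0.21 and the mitotic kinase PLK1 by -0.63 ± 0.14. CCNB1, the mitotic cyclin, was among the members not called, at -0.26 ± 0.07 (FDR 0.0161).

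Over the 173 genes with a weaker rise, the median log2 effect was 2.39 in the 24 h and 1.46 in the 72 h experiment. The median shift from 24 h to 72 h was 1.41 in the vehicle arm and 0.22 in the R1881 arm, and the vehicle shift was the larger in size for 164 of the 173. Over all genes tested the vehicle shift was the larger for 8708 of 16167. These shifts hold experiment and time, and for the R1881 arm also dose, and are given with no test.

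**Figure D2:**
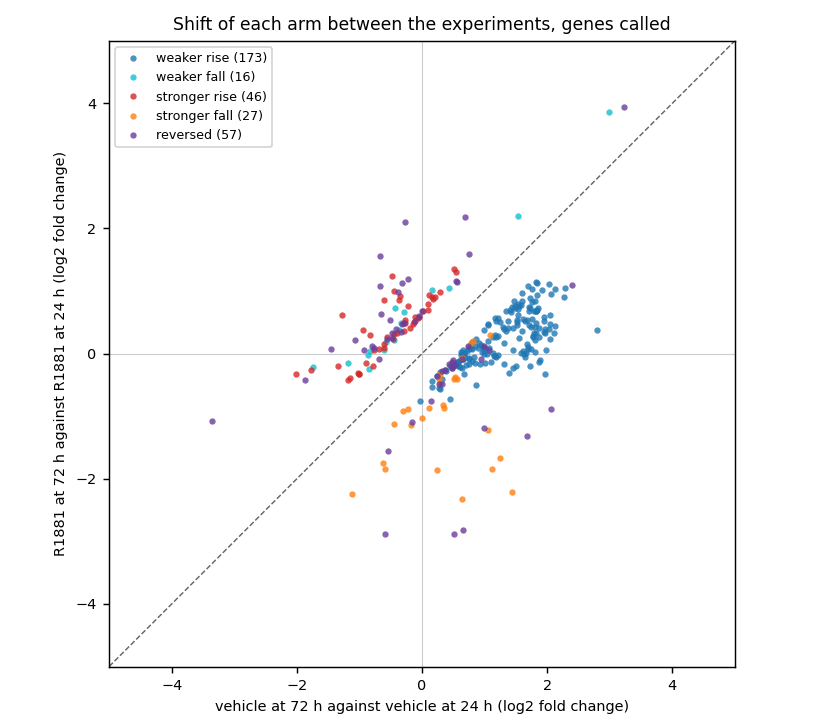
Shift of each called gene between the experiments in the vehicle arm (horizontal axis, log2 fold change of vehicle at 72 h against vehicle at 24 h) and in the R1881 arm (vertical axis, log2 fold change of R1881 at 72 h against R1881 at 24 h). Each point is a gene, colours are the classes, and the dashed line marks equal shifts. The 173 genes with a weaker rise lie below the line, around medians of 1.41 for vehicle and 0.22 for R1881.

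Promoter windows of RefSeq (GRCh38.p14, 250 bases before to 50 after the start of a gene) were matched by symbol for 11019 of the 16150 symbols tested and for 133 of the 173 genes with a weaker rise. They were searched on both strands for the E2F-type letters TTTGGCGC, TTTCCCGC, TTTCGCGC or TTTGCCGC, for CCAAT, and for AGAACA, an arm of the androgen response element, each motif being counted separately also where matches share a base. An E2F-type match was in 28 of the 133 windows (21.1%), beside 587 of 11019 (5.33%), and CCAAT was in 88 (66.2%), beside 4100 (37.2%). AGAACA was in 11 (8.27%), beside 960 (8.71%), and the full element, AGAACA and TGTTCT separated by 3 bases, was in 0 of the 11019. Of 33 windows of genes with a stronger rise, 0 held an E2F-type match and 2 (6.06%) held AGAACA, and of 14 windows of genes with a stronger fall, 3 (21.4%) held an E2F-type match and 3 AGAACA. An E2F-type match was in 0 of 12 windows of genes with a weaker fall and in 2 of 39 (5.13%) of those of opposite sign. Within the class, the genes in the cell-cycle lists had an E2F-type match in 19 of 76 windows (25%) and the others in 9 of 57 (15.8%). Over all tested genes of the cell-cycle lists, called or not, an E2F-type match was in 31 of 118 windows (26.3%) and CCAAT in 76 (64.4%). Since 76 of these 118 windows belong to the class itself, this is not a separate comparison, and neither share is read as particular to the class. These shares are a description, and a match is not a binding site. The windows of 3 named genes of the class that hold both motifs are given, with the largest differences of the class after NEIL3, 5′ to 3′ on the strand of the gene, with the E2F-type and CCAAT matches (on either strand) in capitals. They are CDC6 at chr17:40287629-40287928 on the plus strand, DTL at chr1:212035498-212035797 on the plus strand and ZNF367 at chr9:96418321-96418620 on the minus strand, and the start of each gene lies 50 bases before the end of the window.
CDC6: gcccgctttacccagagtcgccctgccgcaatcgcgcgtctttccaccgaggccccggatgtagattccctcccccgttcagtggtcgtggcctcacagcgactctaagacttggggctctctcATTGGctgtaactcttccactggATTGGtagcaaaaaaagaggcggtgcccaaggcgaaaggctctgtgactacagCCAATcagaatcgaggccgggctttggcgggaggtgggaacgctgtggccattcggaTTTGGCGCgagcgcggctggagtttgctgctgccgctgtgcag
DTL: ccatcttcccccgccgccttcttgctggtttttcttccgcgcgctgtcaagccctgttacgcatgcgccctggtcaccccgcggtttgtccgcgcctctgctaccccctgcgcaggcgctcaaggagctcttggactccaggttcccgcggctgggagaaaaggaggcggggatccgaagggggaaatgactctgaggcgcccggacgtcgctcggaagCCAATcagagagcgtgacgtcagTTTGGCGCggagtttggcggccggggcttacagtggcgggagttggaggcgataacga
ZNF367: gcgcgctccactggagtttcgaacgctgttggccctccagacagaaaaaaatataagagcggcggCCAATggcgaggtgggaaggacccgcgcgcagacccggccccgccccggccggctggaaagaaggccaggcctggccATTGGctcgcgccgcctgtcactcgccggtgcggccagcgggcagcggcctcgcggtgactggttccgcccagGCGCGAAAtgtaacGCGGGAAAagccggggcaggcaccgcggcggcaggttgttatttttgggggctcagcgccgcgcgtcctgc
The CDC6 window held 1 E2F-type match and 3 CCAAT matches, that of DTL 1 and 1, and that of ZNF367 2 and 2. The windows of NEIL3, NCAPG and DEPDC1 held 0 E2F-type matches, and those of NEIL3 and DEPDC1 held 1 CCAAT match each.

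**Figure D3:**
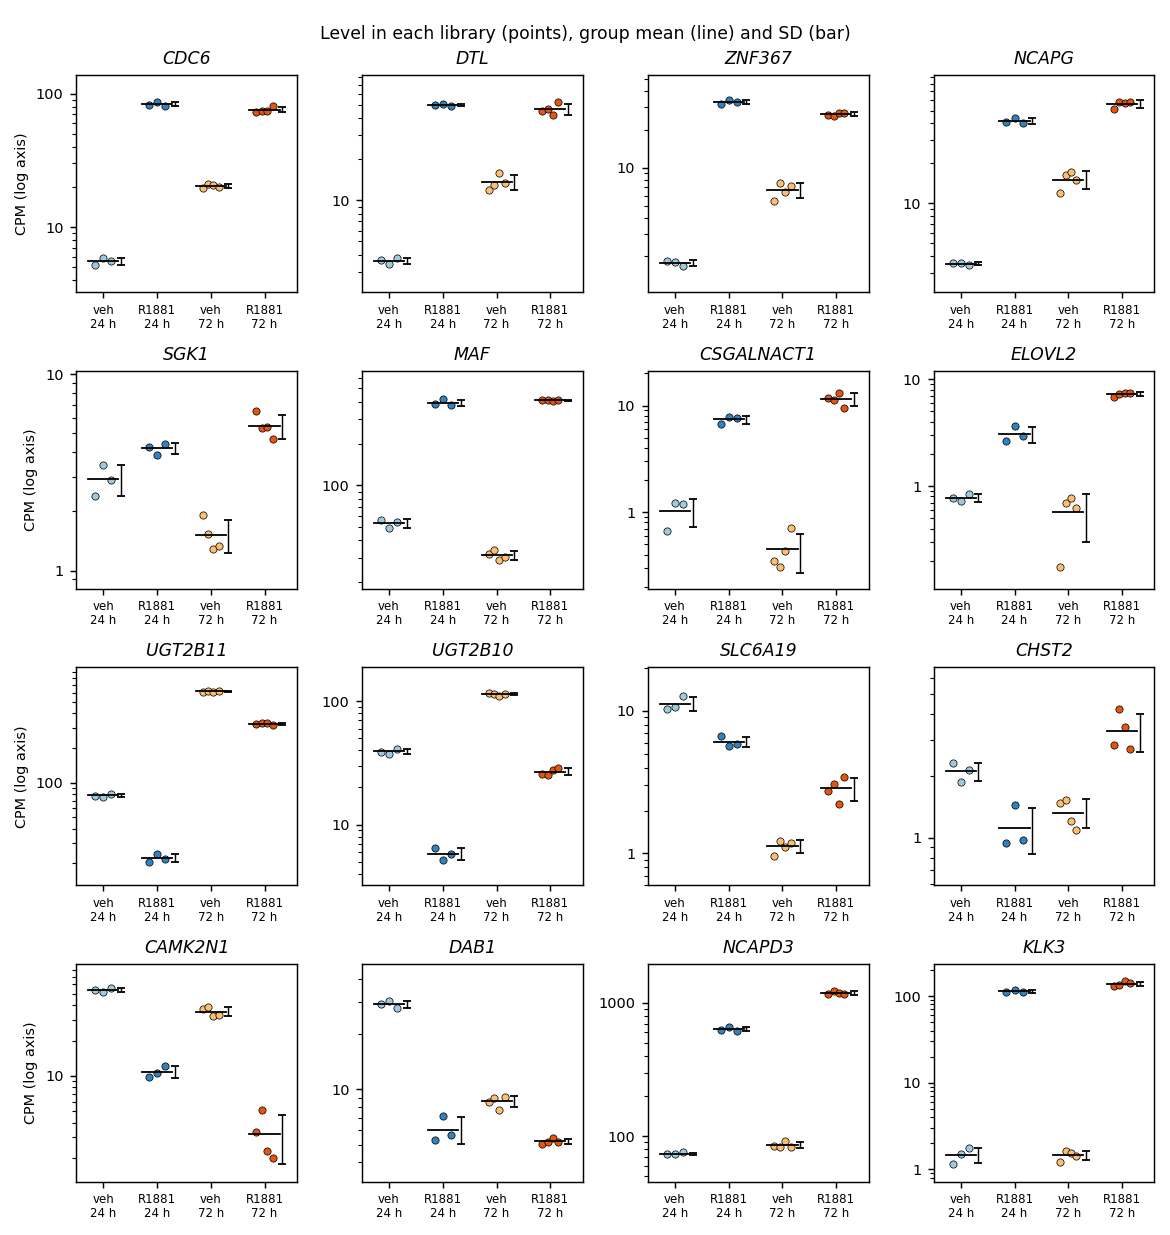
Level of 16 genes in each of the 14 libraries without inhibitor (CPM, log axis), with points for libraries, a line for the group mean and a bar for the SD (n = 3 at 24 h and n = 4 at 72 h). In CDC6, DTL, ZNF367 and NCAPG the vehicle groups differ more between the experiments than the R1881 groups do, and in CSGALNACT1 and ELOVL2 the R1881 group is higher at 72 h than at 24 h.

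Genes of the classical androgen response rose in both experiments, and where the rise differed it was larger at 72 h. Of a list of 50 androgen response genes, R1881 raised 44 at 24 h and 46 at 72 h. The difference was called above 0 for 11 (22%) and below 0 for 0 (27 and 6 at an unadjusted p under 0.05 in edgeR, 11 and 0 called by the DESeq2 Wald test), beside 0.575% and 1.4% of all genes tested, and its median was 0.22. Among them were SGK1, MAF, ODC1, PLPP1, ERRFI1, ELL2, LRIG1, HERC3, SPDEF and NDRG1. HERC3, a ubiquitin ligase, stands in the table under 2 identifiers with nearly equal values, 0.68 ± 0.07 and 0.67 ± 0.07 (SE), between which reads may have been shared, and it is counted once here.

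MAF, a leucine zipper factor, had lower vehicle levels at 72 h, at 32.0, 34.2, 28.6 and 30.4 CPM beside 55.6, 48.7 and 54.5 CPM at 24 h. Its R1881 levels, 387, 418 and 379 CPM at 24 h and 413, 412, 408 and 409 CPM at 72 h, overlapped between the experiments, and its effects were 7.43-fold and 13.1-fold (log2 difference 0.82 ± 0.07, SE). SGK1, a kinase of the AGC family downstream of PI3K, had the largest difference of the list, 1.32 ± 0.25, at 2.40, 3.46 and 2.88 CPM with vehicle and 4.24, 3.90 and 4.43 CPM with R1881 at 24 h, and at 1.92, 1.53, 1.29 and 1.33 CPM and 6.5, 5.31, 5.35 and 4.66 CPM at 72 h. Its effect at 24 h was under the fold limit (0.51 on the log2 scale). ODC1, the rate-limiting enzyme of polyamine synthesis, moved mainly with R1881, from 338 ± 10.2 CPM with vehicle and 794 ± 50.5 CPM with R1881 (SD, n = 3) at 24 h to 367 ± 8.40 CPM and 1512 ± 25.4 CPM (SD, n = 4) at 72 h, a difference of 0.81 ± 0.04 (SE).

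The kallikreins and other classical targets were not among the called genes. KLK3, which encodes PSA, was at 1.15, 1.51 and 1.75 CPM with vehicle and 110, 118 and 111 CPM with R1881 at 24 h, and at 1.22, 1.61, 1.55 and 1.41 CPM and 131, 134, 148 and 142 CPM at 72 h. Its effects were 71.1-fold and 95.0-fold, and the log2 difference was 0.42 ± 0.23 (SE, FDR 0.261). KLK2, its neighbour on the chromosome, had effects of 178-fold and 175-fold and a difference of -0.02 ± 0.22. CHRNA2, a nicotinic receptor subunit, had effects of 181-fold and 102-fold and a difference of -0.82 ± 0.37 (FDR 0.127). With 0.378 to 2.07 CPM in the vehicle libraries of these 3 genes, the size of their fold changes is set by few counts. TMPRSS2, a membrane serine protease, rose 13.2-fold and 17.1-fold (difference 0.38 ± 0.08, FDR 0.000701), and FKBP5, a co-chaperone of steroid receptors, 12.6-fold and 14.4-fold (0.20 ± 0.05, FDR 0.0109). Both differences lie under the fold limit.

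Outside the androgen list, the genes with the largest gain in fold induction were CSGALNACT1, ELOVL2 and LDLRAD4. CSGALNACT1, an enzyme that starts chondroitin sulfate chains, was at 0.672, 1.23 and 1.19 CPM with vehicle and 6.69, 7.88 and 7.70 CPM with R1881 at 24 h, and at 0.349, 0.306, 0.430 and 0.705 CPM and 11.8, 11.3, 13.2 and 9.49 CPM at 72 h. All R1881 libraries at 72 h lay above those at 24 h, and the effect was 6.68-fold at 24 h and 24.9-fold at 72 h (1.90 ± 0.38, SE, FDR 0.000196). ELOVL2, an elongase of polyunsaturated fatty acids, had R1881 levels of 2.64, 3.62 and 2.92 CPM at 24 h and 6.81, 7.22, 7.50 and 7.47 CPM at 72 h, against vehicle levels of 0.768, 0.721 and 0.843 CPM and 0.174, 0.688, 0.775 and 0.627 CPM. Its difference of 1.72 ± 0.37 was no longer called without vehicle replicate 3 at 24 h, the deepest library (1.61, FDR 0.0232). LDLRAD4, a negative regulator of TGF-beta signalling, differed by 1.69 ± 0.37, with vehicle levels of 1.92, 2.45 and 2.27 CPM at 24 h and 0.349, 0.841, 0.430 and 0.549 CPM at 72 h and R1881 levels of 5.56, 6.79 and 5.49 CPM and 6.60, 3.40, 4.55 and 4.83 CPM, which overlapped. Without both vehicle replicate 3 at 24 h and R1881 replicate 1 at 72 h, CSGALNACT1 too was not called (1.73, FDR 0.0121). The vehicle shift was larger in size than the R1881 shift for CSGALNACT1 (-1.28 and 0.62) and LDLRAD4 (-2.01 and -0.32). For ELOVL2 it was smaller (-0.48 and 1.24). With vehicle levels of 0.174 to 0.841 CPM at 72 h, the size of these fold changes is set by few counts.

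CLDN8, a tight-junction claudin, was raised 1.84-fold at 24 h and 5.04-fold at 72 h, with R1881 levels of 7.35, 6.70 and 6.20 CPM and 15.1, 13.9, 12.1 and 13.3 CPM (difference 1.45 ± 0.19, SE, FDR 3.02e-07). KLF4, a zinc finger factor of epithelial differentiation, was raised 3.58-fold and 7.86-fold (1.13 ± 0.25), and its call was lost without vehicle replicate 3 at 24 h (0.94, FDR 0.0387). NCAPD3, a condensin II subunit that is androgen-induced in prostate cells, gained mainly in the R1881 arm, at 621, 660 and 621 CPM at 24 h and 1158, 1231, 1197 and 1169 CPM at 72 h, against vehicle levels of 72.9, 73.0 and 75.5 CPM and 84.2, 83.3, 91.9 and 83.1 CPM. Its effect was 8.55-fold and 13.9-fold (0.70 ± 0.05). FZD5, a Wnt receptor, was raised 2.79-fold and 4.49-fold (0.69 ± 0.09), while SEC24D, a cargo subunit of the COPII coat, had an effect of 1.19-fold at 24 h that was not called and rose 1.91-fold at 72 h (0.69 ± 0.08). Over the 46 genes with a stronger rise, the vehicle shift was the larger for 21 and the R1881 shift for 25, with medians of -0.42 and 0.48.

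The UGT2B enzymes are a family of which some members conjugate androgens with glucuronic acid. They made up all the called members of the list of steroid-metabolizing enzymes, 4 of 23 (17.4%) above 0 and 0 below, beside 0.575% and 1.4% of all genes tested (9 and 2 at an unadjusted p under 0.05 in edgeR). UGT2B11 was at 76.8, 75.8 and 79.9 CPM with vehicle and 20.7, 24.1 and 22.0 CPM with R1881 at 24 h, and at 610, 622, 611 and 619 CPM with vehicle and 325, 327, 327 and 315 CPM with R1881 at 72 h. Androgen lowered it in both experiments, to 0.286 and to 0.525 of vehicle, while both arms were far higher at 72 h (log2 difference 0.88 ± 0.06, SE, FDR 3.04e-13). UGT2B10 was lowered to 0.146 of vehicle at 24 h, from 39.0, 37.6 and 41.1 CPM to 6.5, 5.16 and 5.75 CPM, and to 0.234 of vehicle at 72 h, from 118, 115, 111 and 115 CPM to 25.6, 25.1, 27.7 and 28.8 CPM (0.68 ± 0.12). UGT2B17 differed by 0.61 ± 0.05, from log2 effects of -2.03 and -1.42. UGT2B28 did not pass the test at 24 h (-0.11 ± 0.13) and rose 1.52-fold at 72 h, where its vehicle level was 49.7, 49.6, 48.0 and 44.8 CPM beside 5.28, 5.12 and 5.03 CPM at 24 h (difference 0.71 ± 0.14). The coding sequences of this family are much alike and the deposited counts hold fractions, so reads may have been divided among the members.

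The other 13 of the 16 genes with a weaker fall included DAB1 and GCLC. DAB1, the adaptor of reelin signalling, was at 29.2, 30.3 and 27.7 CPM with vehicle and 5.28, 7.16 and 5.67 CPM with R1881 at 24 h, and at 8.55, 9.03, 7.75 and 9.09 CPM and 5.03, 5.15, 5.44 and 5.19 CPM at 72 h. The vehicle level was lower at 72 h and the R1881 level was similar, so that the fall was to 0.210 of vehicle at 24 h and to 0.604 at 72 h (1.52 ± 0.15, SE). GCLC, the catalytic subunit of the first enzyme of glutathione synthesis, had the same form, with vehicle levels of 93.4, 97.9 and 99.5 CPM at 24 h and 44.2, 41.6, 43.1 and 42.6 CPM at 72 h, and R1881 levels of 39.7, 41.1 and 43.1 CPM and 39.1, 35.3, 36.4 and 38.5 CPM (1.03 ± 0.07). BMP6, a bone morphogenetic protein, differed by 0.84 ± 0.22, but the call was lost in 11 of the 14 fits that leave out 1 library (FDR up to 0.0406) and held only without R1881 replicate 1 at 24 h, vehicle replicate 4 at 72 h or R1881 replicate 2 at 72 h.

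Genes that androgen lowered more strongly in the 72 h experiment fell into 2 kinds. Among called genes with a symbol and with over 3 counts in some library of every group, RPL30-AS1 (-3.64 ± 1.09), TALAM1 (-2.97 ± 0.74) and BEST1 (-2.28 ± 0.45, SE) had the largest differences of the class. The exons of RPL30-AS1 and BEST1 overlap, on the opposite strand in GENCODE 29, exons of RPL30 and FTH1, which have over 100 times their counts. TALAM1 had no position in GENCODE 29, so whether it has such a partner could not be looked up. A position was found for 15726 of the 16167 genes tested. Of 180 genes tested with such a partner, 10 were called (5 with a stronger fall and 5 of opposite sign), beside 1.97% of all genes tested. The libraries were made with a directional kit and the strand setting of the counting is not given in the sources used here, so reads of a gene and of its partner cannot be told apart. BEST1 was at 17.4, 8.29 and 9.39 CPM with vehicle and 5.85, 5.25 and 6.46 CPM with R1881 at 24 h, and at 23.2, 13.2, 35.1 and 19.0 CPM with vehicle and 3.88, 2.49, 1.96 and 1.93 CPM with R1881 at 72 h. Vehicle replicates 1 and 3 at 72 h were the highest, and RPL30-AS1 (6.54, 2.06, 10.7 and 2.74 CPM) and TALAM1 (11.7, 4.74, 19.0 and 7.91 CPM) were also highest in these. The sum over the 180 genes moved the same way, from 284 to 405 CPM with vehicle and 220 to 242 CPM with R1881 at 24 h, and from 329 to 571 CPM and 200 to 223 CPM at 72 h, and its part in these differences was not tested. The log2 difference of the partners, neither of which was called, was 0.01 ± 0.04 for RPL30 and -0.03 ± 0.03 for FTH1. The call of RPL30-AS1 was lost in 9 of the 14 fits without 1 library (FDR up to 0.0361), and that of TALAM1 without R1881 replicate 1 at 24 h (-2.75, FDR 0.0163). Neither gene was called by the DESeq2 Wald test (FDR 0.0398 for RPL30-AS1 and 0.0381 for TALAM1) or with all 28 libraries in the fit (FDR 0.0324 and 0.0250). In ENSG00000260798 and ENSG00000271980, antisense transcripts to CDH1 and CCT5 and the 2 called genes where no R1881 library at 72 h exceeded 3 counts, vehicle levels at 72 h were 0.765 to 1.55 CPM and 0.230 to 1.55 CPM. By its fitted signs ENSG00000271980 belongs to the class of opposite sign, with an effect at 24 h that was not called. No fold is given for these antisense transcripts, and their calls were lost without 1 and 2 of the 14 libraries (R1881 replicate 1 at 24 h, and R1881 replicate 2 at 24 h or at 72 h).

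Among the genes without such a partner, chosen for naming after the values were seen, PLPPR1, a lipid phosphatase-related membrane protein of neurons, was at 19.1, 15.5 and 15.5 CPM with vehicle and 5.85, 5.16 and 5.13 CPM with R1881 at 24 h, and at 9.42, 11.5, 10.9 and 11.5 CPM and 1.26, 2.08, 1.07 and 1.49 CPM at 72 h. Its fall was to 0.33 of vehicle at 24 h and to 0.138 at 72 h (-1.26 ± 0.23, SE). CAMK2N1, an inhibitor of CaM kinase II from the list of androgen-repressed genes, was at 54.0, 51.8 and 56.2 CPM with vehicle and 9.80, 10.5 and 12.2 CPM with R1881 at 24 h, and at 37.3, 38.2, 32.2 and 32.8 CPM and 3.35, 5.15, 2.32 and 2.02 CPM at 72 h. The R1881 libraries at 72 h lay below all those at 24 h, and the difference was -1.12 ± 0.20. That list of 14 genes was split, with CAMK2N1 and the opioid receptor OPRK1 (-0.68 ± 0.16) called below 0 and UGT2B10 and UGT2B17 above 0 (28.6% called, beside 1.97% of all genes tested). ACP3, prostatic acid phosphatase, fell to 0.428 of vehicle at 24 h and to 0.281 at 72 h (-0.61 ± 0.11), and 4 fits without 1 library (vehicle replicate 3 or R1881 replicate 3 at 24 h, vehicle replicate 1 or R1881 replicate 4 at 72 h) put it under the fold limit, at -0.52 to -0.59 with an FDR of at most 0.00126. ETNPPL, a phospholyase of phosphoethanolamine (-1.22 ± 0.33), lost its call in 10 of 14 such fits and with the replicate block, and SNX22, a sorting nexin, differed by -1.15 ± 0.26, which the DESeq2 Wald test did not call. IFIH1, the RNA sensor MDA5, fell to 0.404 of vehicle at 72 h (difference -0.91 ± 0.19), with an effect of -0.39 ± 0.14 at 24 h that was not called.

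For 57 called genes the fitted effects had opposite signs, 31 with a difference above and 26 below 0, and for 6 of them each effect alone had an FDR under 0.01. SLC6A19, a transporter of neutral amino acids, was at 10.3, 10.7 and 12.7 CPM with vehicle and 6.69, 5.71 and 5.84 CPM with R1881 at 24 h, and at 0.959, 1.22, 1.12 and 1.18 CPM with vehicle and 2.72, 3.07, 2.23 and 3.43 CPM with R1881 at 72 h. Androgen lowered it to 0.523 of vehicle in the 24 h experiment and raised it 2.54-fold in the 72 h experiment, where both arms were lower (2.28 ± 0.25, SE, FDR 1.14e-08). CHST2, a sulfotransferase, fell to 0.534 of vehicle, from 2.31, 1.87 and 2.15 CPM to 0.943, 1.45 and 0.974 CPM, and rose 2.51-fold, from 1.48, 1.53, 1.21 and 1.10 CPM to 2.83, 4.23, 3.48 and 2.73 CPM (2.23 ± 0.34). GADD45G, a stress-response gene of growth arrest, fell to 0.640 of vehicle, from 16.1, 13.5 and 14.5 CPM to 10.1, 9.24 and 8.68 CPM, and rose 1.70-fold, from 11.9, 12.5, 13.4 and 12.4 CPM to 23.4, 19.9, 20.4 and 21.7 CPM (1.41 ± 0.12). In these 3 genes vehicle and R1881 libraries did not overlap in either experiment and both effects were called. STARD4, a cholesterol transfer protein (0.68 ± 0.08), CPEB2, an RNA-binding regulator of translation (0.92 ± 0.18), and ZNF354B, a zinc finger protein (-0.61 ± 0.14), had smaller effects of opposite sign, all under the fold limit. The call of ZNF354B was lost at the fold limit without vehicle replicate 2 or R1881 replicate 4 at 72 h, and at the FDR limit in the DESeq2 Wald test (FDR 0.0173) and with thinned libraries (-0.52, FDR 0.0250). CDKN1C, the CDK inhibitor p57, had an effect of -0.71 ± 0.15 at 24 h and 0.06 ± 0.13 at 72 h (0.78 ± 0.20), and its call was lost in 7 of 14 fits without 1 library (FDR up to 0.0382).

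MYC, which is not called, belongs here by its signs. Its levels were 254, 255 and 260 CPM with vehicle and 282, 299 and 287 CPM with R1881 at 24 h, and 268, 255, 263 and 263 CPM and 230, 224, 218 and 228 CPM at 72 h. The effects of 0.17 ± 0.03 and -0.22 ± 0.03 (SE) differed by -0.39 ± 0.04 (FDR 7.37e-09), under the fold limit. Of a list of 44 genes of ribosome biogenesis and MYC, 40 had a difference below 0 but 1 was called (2.27%), NOC3L, a nucleolar factor of the large subunit, at -0.71 ± 0.11, and the median was -0.17. Of the list of 31 p53 targets tested, 25 had a difference below 0 and 0 were called, with a median of -0.15. At an unadjusted p under 0.05 edgeR gave 15 of the 31 below and 4 above 0, and the DESeq2 Wald test called 0.

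The remaining lists held 1 to 3 called genes each, with medians between -0.19 and 0.15. Where a member was called, the share called in that direction was between 2.33% and 7.14% of a list, beside 0.575% of all genes tested above 0 and 1.4% below, but it stands for 1 to 3 genes. The prostate secretory list (14 tested) had NCAPD3 called above and ACP3 below 0, and the list of G1 cyclins and CDK inhibitors (20 tested) CDKN1C above and CDK2 below. In the unfolded protein response and secretory pathway list 37 of 43 genes had a difference above 0, with a median of 0.15, and 1 was called in each direction, SEC24D above and DERL3, a factor of ER-associated degradation, below (-1.71 ± 0.33, SE). DERL3 was raised 5.61-fold at 24 h and 1.72-fold at 72 h, with group means of 0.649 to 3.51 CPM, and its call was lost when libraries were thinned to the smallest total. In the ATF4 and amino acid supply list 25 of 35 had a difference below 0, with a median of -0.19, and 1 was called, the glycine transporter SLC6A9 (-0.70 ± 0.16), whose call was lost without vehicle replicate 3 or R1881 replicate 2 at 24 h (FDR up to 0.0145). The Wnt, BMP, TGF-beta and Notch list had 3 of 46 above 0 (BMP6, FZD5 and WNT7B), the fatty acid list 2 of 36 (ELOVL2 among them), and the interferon list 1 of 34 in each direction, the ubiquitin ligase HERC6 above (0.69 ± 0.13) and IFIH1 below. The sterol list (37 tested, STARD4), the adhesion list (33, CLDN8), the insulin-IGF and ERBB list (30, SGK1), the lineage factor list (28, KLF4), the immediate-early list (25, KLF4) and the metallothionein and NRF2 list (22, GCLC) had 1 called gene each, above 0 in every case.

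The Mediator kinase module, the target of the inhibitors used in the other libraries, had 0 of 7 genes called for the difference (1 at an unadjusted p under 0.05 in edgeR, and 0 called by the DESeq2 Wald test). CDK8 was lowered in both experiments, from 53, 47.2 and 51.7 CPM to 23.5, 23.3 and 26.0 CPM at 24 h and from 47.8, 47.5, 44.2 and 41.9 CPM to 22.8, 24.6, 23.5 and 21.1 CPM at 72 h (difference 0.09 ± 0.09, SE). CDK19 was at 308, 302 and 311 CPM with vehicle and 429, 414 and 432 CPM with R1881 at 24 h, and at 275, 276, 272 and 275 CPM and 352, 336, 363 and 354 CPM at 72 h, effects of 0.47 ± 0.03 and 0.36 ± 0.03 on the log2 scale that lie under the fold limit (difference -0.11 ± 0.04). Of the 13 neuronal and neuroendocrine genes tested, 0 were called for the difference (edgeR, with 2 at an unadjusted p under 0.05, and 0 by the DESeq2 Wald test).

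**Figure D4:**
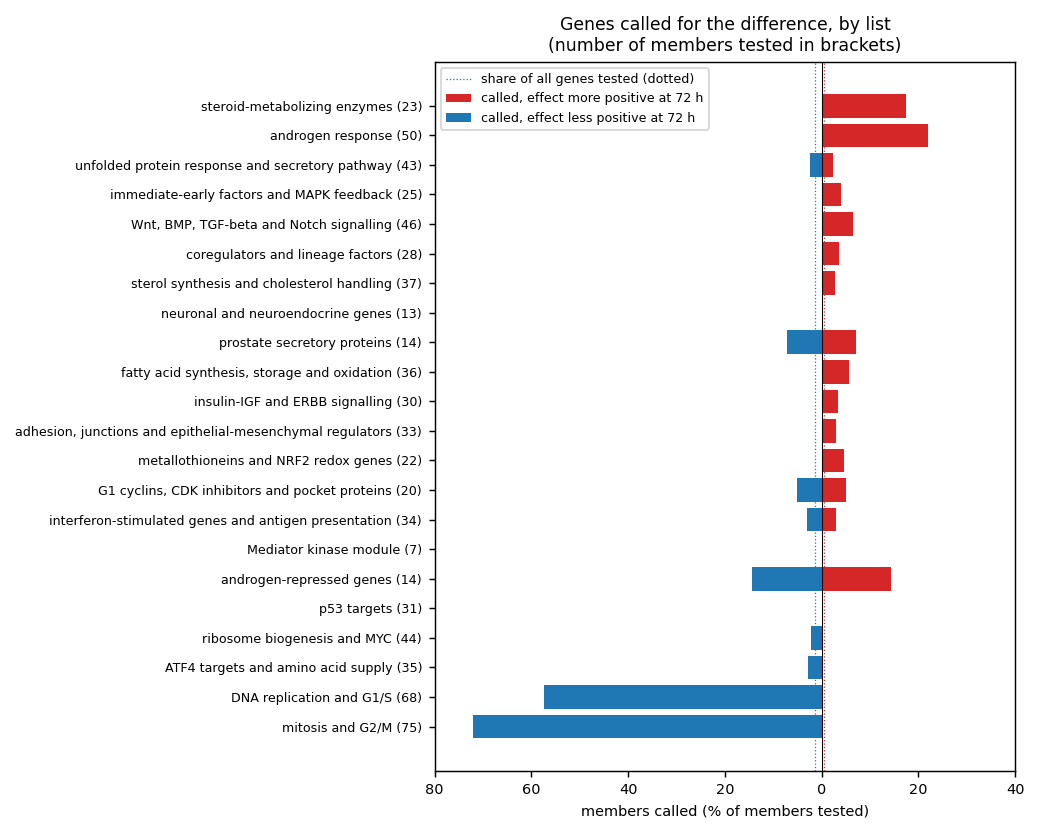
Share of the tested members of each gene list that were called for the difference (horizontal axis, percent), to the right where the androgen effect was more positive at 72 h and to the left where it was less positive, with the number of members tested in brackets and lists sorted by median difference. Dotted lines mark the share of all genes tested, 0.575% and 1.4%. The mitosis list reaches 72% and the replication list 57.4% to the left, and the androgen response list 22% to the right.

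The same difference was then measured in the 14 libraries with inhibitor, which share no library with those above, although the inhibitor and its dose also differ between the experiments. There 374 of 16240 genes were called (2.3%), 76 above and 298 below 0. Of the 319 genes, 316 were tested with inhibitor, 307 (97.2%) had a difference of the same sign, and 200 (63.3%) were called in the same direction and 0 in the other. Over all genes tested in both, 65.9% had the same sign. The classes were not alike in this. Of the 173 genes with a weaker rise all had the same sign and 155 were called, with medians of -0.93 without and -1.14 with inhibitor, whereas 18 of 46 genes with a stronger rise, 6 of 16 with a weaker fall, 8 of 26 with a stronger fall and 13 of 55 of opposite sign were called, and these shares were not tested against each other. CDC6 differed by -1.76 ± 0.10 with inhibitor, CSGALNACT1 by 2.43 ± 0.40, GCLC by 1.19 ± 0.06 and SLC6A19 by 1.92 ± 0.27 (SE), and each was called. SGK1 (0.72 ± 0.29, edgeR FDR 0.0903) and CHST2 (0.75 ± 0.31, FDR 0.104) were not called with inhibitor. BMP6 (-0.11 ± 0.15) and ZNF354B (0.14 ± 0.16) had the other sign and were not called. The log2 effect of R1881 on SLC6A19 at 72 h was 0.11 with SNX631, beside 1.35 without inhibitor.

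A test of the difference between the contrasts without and with inhibitor called 9 of 16672 genes (0.054%, edgeR), 3 above and 6 below 0, and 1915 had an unadjusted p under 0.05. NCAPD3, whose effect differed by 0.70 without inhibitor, differed by -0.10 ± 0.07 with it (difference of the contrasts 0.80 ± 0.10, SE), and UGT2B11 by 0.12 ± 0.09 (0.75 ± 0.10). The aldehyde dehydrogenase ALDH1A3 was above 0 as well, at 0.69 ± 0.13. Below 0 were SLC6A9 (-1.28 ± 0.20), SLC7A11, the cystine transporter (-0.83 ± 0.14), MTHFD1L, a mitochondrial folate enzyme (-0.71 ± 0.15), and PSAT1, of serine synthesis (-0.65 ± 0.08), together with NOC3L (-0.72 ± 0.15) and RCN1, a calcium-binding protein of the ER (-0.60 ± 0.09). Of these 9, NCAPD3, UGT2B11, SLC6A9 and NOC3L were among the 319.

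**Figure D5:**
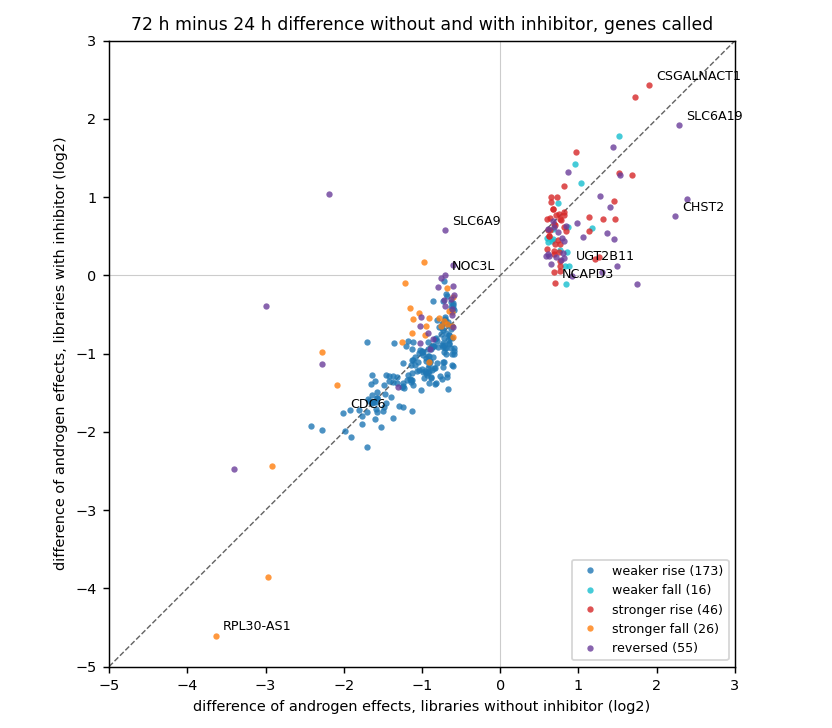
Difference of the androgen effects between 72 h and 24 h in the libraries without inhibitor (horizontal axis, log2) and with inhibitor (vertical axis, log2) for the 316 called genes that were tested in both. Each point is a gene, colours are the classes, and the dashed line marks equal differences. The 173 genes with a weaker rise all lie below 0 on both axes, and NCAPD3, UGT2B11, NOC3L and SLC6A9 lie apart from the line.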

How the data were processed

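RNA-seq libraries of LNCaP cells were analysed from the table of expected counts per gene that the authors deposited. Per the labels, reads were processed with FastQC, cutadapt 2.8, STAR 2.7.2b and featureCounts of Subread 2.0.3 on GRCh38.p13. The annotation release and strand setting are not given in the sources used here. The deposited expected counts were not scaled, and 16.9% of values above 0 had a fractional part. Values were rounded, and 2 entries that are not human genes, at 0 counts, were left out. Total counts of 9846595 to 33809419 per library set the precision at low levels.

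The 14 libraries without inhibitor were fitted as 4 groups in edgeR 4.0.16 (R 4.3.3) by quasi-likelihood, with TMM scaling, filterByExpr (minimum count 10, minimum total 15) and Benjamini-Hochberg adjustment over the 16167 genes left. The contrast was the androgen effect at 72 h minus that at 24 h. Calls needed an FDR under 0.01 with a difference of more than 1.5-fold, as in the study. CPM values are scaled by TMM factors, and SEs are Wald SEs of the fit. The same contrast was fitted in the 14 libraries with inhibitor, and the difference of the contrasts in all 28. A floor of 3 counts per library was used, which covers counting error only. Overlaps on the opposite strand were taken from GENCODE 29.

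Named genes were KLK3, KLK2, CHRNA2, TMPRSS2, FKBP5, CDK8, CDK19 and MYC, the 3 called genes of largest difference in each class, and the 2 of each list, with a gene symbol, at least 1 CPM in the highest group and over 3 counts in some library of every group (for opposite signs, each effect alone at an FDR under 0.01). Called genes with a group at or under 3 counts were named apart. Some genes that the rule takes are not reported here. Other genes were named after their values were seen. The comparison, the gene lists and the rules were chosen with earlier results of these data known. On simulated data 98% of 200 genes with a difference of 1 (log2) were called, with 3 false calls among 16167 genes. The 200 were drawn only from genes above a set mean CPM, so recovery of genes at low levels was not measured. Alternatives were other scalings, DESeq2 1.42.0 (Wald test), filters, call limits, all libraries in 1 fit, a replicate block, thinning, and leaving out each library. Leaving out 2 libraries together, and genes overlapped on the opposite strand, was chosen after seeing the data. Figures were drawn with matplotlib 3.10.9.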

Additional observations from a re-analysis of the deposited data

Results flagged for a closer look

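The androgen effect differed between the 72 h and the 24 h experiment, by the test of the difference itself, for 319 genes, among them 47 of 55 genes taken by rule or for their values. The difference between the contrasts without and with inhibitor was called for 9 genes, SLC6A9 at -1.28, SLC7A11 at -0.83, NCAPD3 at 0.80, UGT2B11 at 0.75, NOC3L at -0.72, MTHFD1L at -0.71, ALDH1A3 at 0.69, PSAT1 at -0.65 and RCN1 at -0.60 on the log2 scale. The inhibitors differ between the experiments, so that inhibitor, dose and time cannot be told apart in these values.

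Within the 72 h groups of 4 libraries, 112 sets of values were examined for a library far from the others (Dixon's 95% critical value of the gap over the range, which chance passes in about 1 of 20 sets), and 6 met the limit. With vehicle, NCAPD3 was at 91.9 CPM in replicate 3, beside 83.1 to 84.2 CPM in the others, and SNX22 at 16.5 CPM in replicate 3, beside 9.03 to 10.1 CPM. With R1881, CHRNA2 was at 86.2 CPM in replicate 4, beside 89.0 to 89.6 CPM, and UGT2B11 at 315 CPM in replicate 4, beside 325 to 327 CPM. CDK2 was at 65.0 CPM in R1881 replicate 1, beside 68.2 to 68.5 CPM, and ENSG00000260798 at 0.209 CPM in the same library, beside 0.083 to 0.089 CPM.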

How the results depend on the processing

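Counts of called genes depended on the limits of a call and little on other choices. With an FDR under 0.05 and no fold limit, 2265 genes were called for the difference, 983 above and 1282 below 0, of which 757 had a stronger, 921 a weaker and 587 an opposite effect, and 2167 genes were called with inhibitor and 151 for the difference of the contrasts. Tested against a 1.5-fold change at an FDR under 0.05, 96 were called, 21 above and 75 below 0, with 14 stronger, 72 weaker and 10 opposite, all of them among the 319. Under the other scalings, tests and filters, all 28 libraries and thinning, the count lay between 275 (DESeq2 Wald test) and 353 (no filter on low counts), with 265 (thinned) to 318 (DESeq2 size factors) of the 319 called again, and the scalings moved the median of all genes by at most 0.017 in size. Leaving out 1 library gave 280 to 325 called genes, 80 to 101 above and 199 to 235 below 0, with 64 to 80 stronger, 168 to 191 weaker and 47 to 65 opposite, and 216 genes were called in each of the 14 fits. The replicate block, the replicate number within each experiment, gave 330 calls, 308 of them shared. The deviations of same-numbered vehicle and R1881 libraries correlated between -0.0291 and 0.0726, beside -0.0781 to 0.0738 for libraries of different number. Such correlations cannot decide whether the samples were paired by design. Among named genes the replicate block ended the call of ETNPPL (FDR 0.0134). KLK2, which was not called, was at 0.0081 with no filter, 0.060 thinned and 0.066 without vehicle replicate 3 at 24 h and R1881 replicate 1 at 72 h, and between -0.163 and 0.0746 in the fits without 1 library, 4 of which turned its sign. Of other named genes, the DESeq2 Wald test did not call CDKN1C, BMP6, ETNPPL, SNX22 and ENSG00000260798, the fit of 28 libraries BMP6 and ETNPPL, thinning ELOVL2, KLF4, CDKN1C, DERL3 and BMP6, and the fit without filter ACP3. Leaving out those 2 libraries together gave 271 calls and ended 11 calls of named genes, and leaving out genes overlapped on the opposite strand gave 309. The causes were not tested. Depth limits genes under 1 CPM most, since they rest on few counts in the smallest libraries.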
